A study of Mus musculus with 4 samples.

Results

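The genes described here build the machinery that carries proteins into mitochondria, folds them there and removes the damaged ones. They were chosen by name among the protein-coding genes of the table: all Tomm, Timm and Chchd genes whose name goes on with a number, and 21 named chaperones, peptidases, proteases and scaffold proteins (Hspd1, Hspe1, Hspa9, Trap1, Grpel1, Dnaja3, Pmpca, Pmpcb, Lonp1, Clpp, Clpx, Afg3l2, Yme1l1, Oma1, Spg7, Phb, Phb2, Immt, Samm50, Mtx1 and Mtx2). The rule found 51 of the 17259 listed genes and used no measured value. Tomm6, Tomm20l and Timm8a2 matched no row and were not analysed here.

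RNA came from brown adipose tissue (BAT), the heat-producing fat of mice, of animals with the genotype WT. There were 4 libraries, 2 of isolated mitochondria (BAT-Mito) and 2 named BAT-total. The titles of the second group say total and the study speaks of total lysates, whereas its treatment label describes tissue from which mitochondria had been taken away, so its values stand either for the whole tissue or for what the isolation left. The labels give no age or sex and do not say whether the libraries of a group came from separate animals, so p-values measure the spread between these libraries, which may be technical. The mitochondrial preparation for RNA included RNase A in the methods, which are written for heart. The study adjusted RNA fragmentation for mitochondrial samples, and a difference in preparation between the groups cannot be told apart from the fraction. Fewer brown adipocytes and less RNA per cell cannot be told apart in bulk tissue either.

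Nearly all mitochondrial proteins are encoded in the nucleus and made in the cytosol. The TOM complex is the entry gate of the outer membrane, small TIM chaperones guide hydrophobic chains across the intermembrane space, the TIM22 and TIM23 complexes insert or translocate them at the inner membrane, and the Hsp70 motor pulls them into the matrix. There the processing peptidase cuts off the targeting sequence, chaperonins fold the chains, and proteases degrade those that fail. Brown adipocytes are crowded with mitochondria, whose uncoupling protein releases heat. All of the genes described are nuclear, and how their RNA came to be in a mitochondrial library was not tested.

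Depth set the limits. The BAT-Mito libraries held 26288871 and 24910434 reads. Genes of the mitochondrial genome took 95.3% and 95.5% of them, and 45865 and 55924 reads fell on nuclear protein-coding genes (predicted Gm genes left out of this total). Values are normalised counts, that is reads divided by a size factor per library. A single read was worth 8.32 units in BAT-Mito 1 and 6.90 units in BAT-Mito 2, so that a value under 25 or 20.7 units, the worth of 3 reads, is at the edge of detection. Reads behind the BAT-total values are unknown. The libraries of the mitochondrial group differed. Summed transcripts of 5 liver genes, such as Alb, made up 2.43% of nuclear protein-coding values in BAT-Mito 1, against 0.179% in BAT-Mito 2 and 0.0367% and 0.0108% in BAT-total, where 2 of the 5 were at 0 in BAT-total 2. The 9 brown adipocyte markers together took 0.722% in BAT-Mito 1 and between 1.89% and 2.08% in the other 3 libraries. Against this sum, Adrb3 (25 and 0 units), Dio2 (25 and 21) and Elovl3 (25 and 14) were higher in BAT-Mito 1 than in BAT-Mito 2. Summed skeletal muscle markers were also higher in BAT-Mito 1, at 2530 units, than in the other libraries, at 244 to 773 units. The 4 endothelial markers summed to 84 and 7 units in BAT-Mito, where 1 and 3 of them were at 0, and to 804 and 863 units in BAT-total. The part of these differences in the results was not tested. Each log2 fold change given with its error is therefore followed by its values with either mitochondrial library left out, where these move it by over 1.5 times or change its call.

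The members were well represented in BAT-total. Per kilobase of exons their median was 23.2 normalised counts, against 3.69 over all nuclear protein-coding genes. Among genes that passed the filter of a mean of at least 10, the medians were 26.0 and 7.19. Levels ranged 197-fold between members. Hspa9, the mitochondrial Hsp70 that drives the import motor, was the highest at 284.7 per kb, next to Chchd10, an intermembrane space protein of the twin CX9C family, at 274.0 per kb. Below them came Hspd1 (the chaperonin Hsp60) at 156.9, Chchd2 at 104.9, Trap1 (a matrix Hsp90) at 87.6 and Chchd3, a cristae junction protein, at 77.8 per kb. The lowest was Chchd5 at 1.45 per kb. For some members merged exons far exceed the longest coding transcript, as in Immt (11353 against 2728 bp) and Chchd2 (2269 against 915 bp). The place of such members in this order depends on the length used. The BAT-total libraries kept nearly the same order over the 51 members, with Spearman's rho 0.981 and Pearson's r 0.982 on the log2 scale, given as a description of 2 libraries that share tissue and processing. The BAT-total 1 value was the higher in 36 members and the lower in 14, and the sums differed 1.10-fold.

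**Figure D1:**
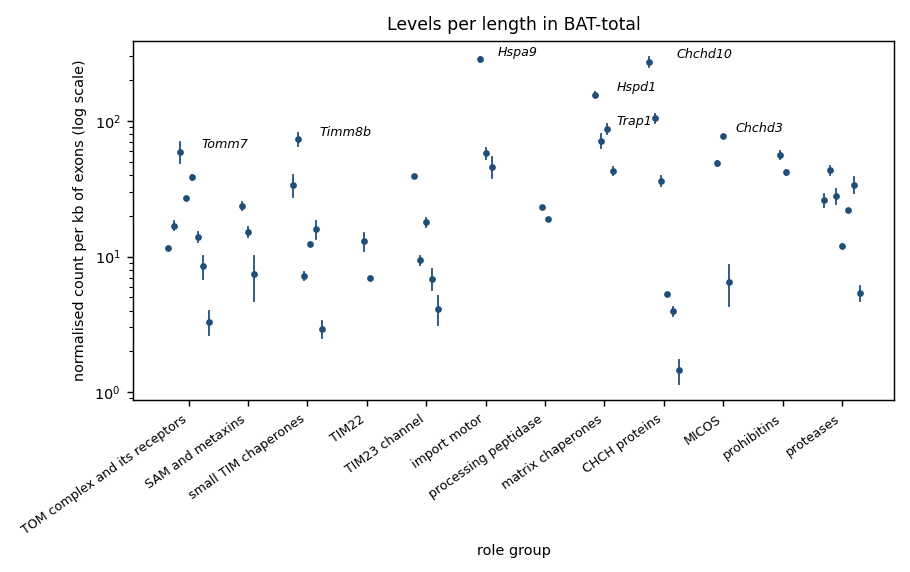
Levels of the 51 members in BAT-total, as normalised counts per kilobase of exons on a log axis, by role group. Points are means and vertical lines span the 2 libraries; Hspa9 and Chchd10 stand at the top and Chchd5 at the bottom.

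No member was called different between the fractions. Of 47 members with a mean of at least 10 normalised counts, 0 were higher and 0 lower in BAT-Mito by limma at a Benjamini-Hochberg adjusted p under 0.05, where 0.803% and 4.41% of all 8215 genes tested were called. Of the 362 lower calls among all genes, 359 had 0 reads in both BAT-Mito libraries, which no tested member did. The other 4 (Chchd5, Tomm34, Timm10b and Timm17b) were under the filter. At an unadjusted p under 0.05 limma gave 0 higher and 2 lower members, Chchd2 and Spg7, against 3.20% and 14.9% of all genes. With edgeR the counts were 0 higher and 0 lower adjusted (1.64% and 4.02% of all genes) and 0 higher and 12 lower unadjusted (4.03% and 25.7%). Both BAT-Mito values lay below both BAT-total values in 29 of the 47 and above them in 1, while 52.1% and 8.59% of all genes showed these orders. The median log2 fold change of tested members was -1.50, against -1.23 over all genes tested. On the same scale without a filter the median of all 51 was -1.52. Without BAT-Mito 1 it was -0.62, which is above the median of all genes (-0.92) instead of below it. Leaving out a library also moved the calls. Without BAT-Mito 1 limma called 2 members higher (Hspe1 and Tomm5) and 15 lower, against 5.68% and 41.1% of all genes. Without BAT-Mito 2 it called 0 higher and 28 lower, against 7.57% and 47.0%. In these fits the single library left is assumed to vary as the BAT-total pair did.

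**Figure D2:**
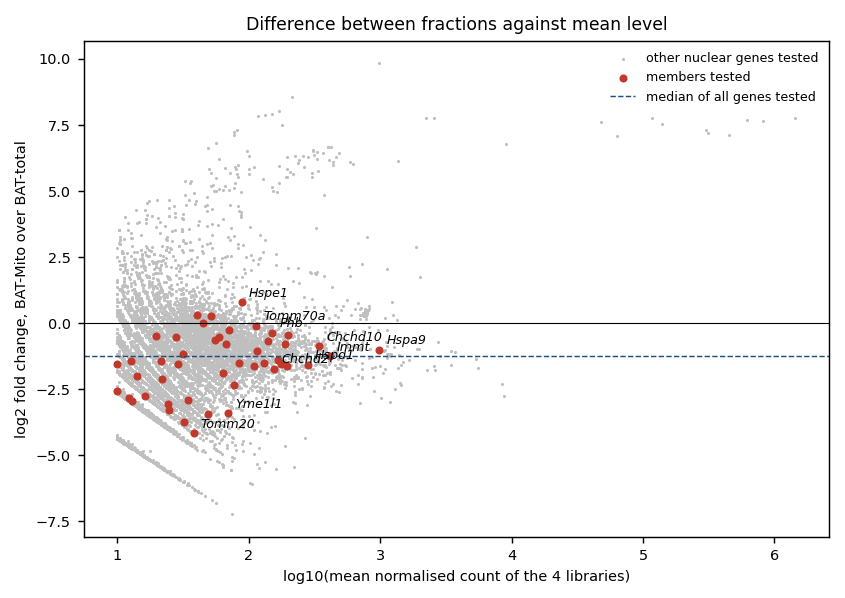
Log2 fold change of BAT-Mito over BAT-total against log10 of the mean normalised count, for nuclear genes tested (grey) and the 47 tested members (red). The dashed line is the median of all genes (-1.23); most members lie around or below it, and Hspe1 lies highest.

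Summed over the 51 members, the libraries held 2265 and 4923 units in BAT-Mito (272 and 713 reads) and 6905 and 6253 units in BAT-total. As a share of nuclear protein-coding values this was 0.594% (95% Wilson interval 0.527 to 0.668%) in BAT-Mito 1 and 1.27% (1.19 to 1.37%) in BAT-Mito 2, against 1.07% and 0.989% in BAT-total. One mitochondrial library thus lay below and the other above both BAT-total libraries. Averaged per group, the share was 0.933% ± 0.480 in BAT-Mito and 1.03% ± 0.0594 in BAT-total (SD of 2 libraries), which lies within the spread (two-sided exact permutation p = 1.0, where 2 libraries against 2 cannot go below 0.333). Between the BAT-Mito libraries the sum rose 2.17-fold while all nuclear protein-coding genes together differed 1.01-fold, and the tested members were higher in BAT-Mito 2 in 66.0% of cases, against 48.2% of tested nuclear protein-coding genes. The sum of the brown adipocyte markers differed in the same direction, though 3 of the 9 were higher in BAT-Mito 1. Relative to that sum in the same library, the members' sum was 0.822 and 0.651 in BAT-Mito and 0.517 and 0.524 in BAT-total.

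Other nuclear genes for mitochondria and for protein folding were set beside the members. Of 29 further import and quality control genes, 27 were tested, with a median log2 fold change of -1.11 and 0 higher and 2 lower calls (0.803% and 4.41% of all genes). These were Apool, a cristae protein, with 0 reads in both BAT-Mito libraries and 39 and 35 units in BAT-total, and Pam16, a motor subunit, with 0 reads and 22 and 28 units. Against the floor of 3 reads per library, Apool was at least 1.62-fold and Pam16 at least 1.09-fold lower. edgeR called 0 of the 27. For 73 tested mitochondrial ribosomal protein genes the median was -1.13, with 0 higher and 4 lower calls (Mrpl43, Mrps16, Mrps28 and Mrps18b, all with 0 reads in both BAT-Mito libraries), beside the same 4.41% of all genes. Their median was -0.44 without BAT-Mito 1 (all genes -0.92) and -1.21 without BAT-Mito 2 (all genes -1.05). For 18 cytosolic chaperones and ubiquitin genes the median was -0.74, with 0 limma calls and 2 lower genes at an unadjusted p under 0.05. Without BAT-Mito 1 this median was -0.46, above that of all genes (-0.92). Without BAT-Mito 2 it was -1.36, below that of all genes (-1.05) and near that of the members (-1.35). The summed share of each of these lists was lower in BAT-Mito 1 than in BAT-Mito 2, as for the members.

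**Figure D3:**
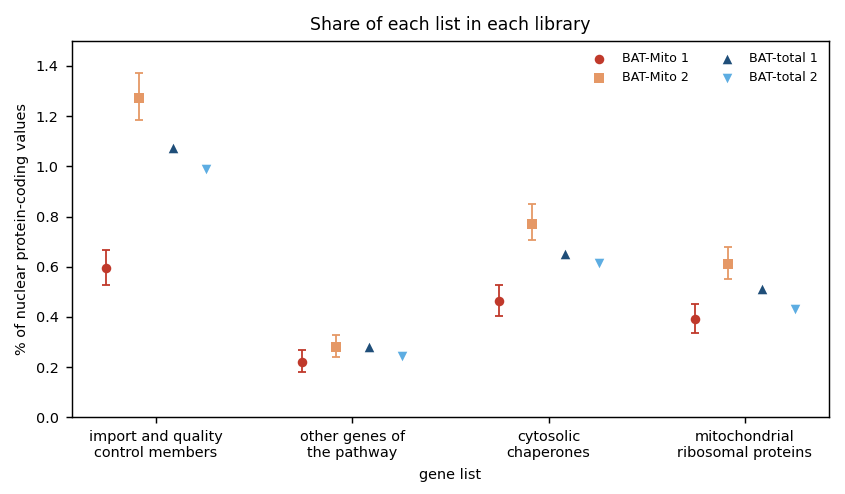
Share of nuclear protein-coding values taken by the members and by 3 other gene lists in each library. Bars on the BAT-Mito points are 95% Wilson intervals for counting error; in all 4 lists BAT-Mito 1 is the lowest library.

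**Figure D4:**
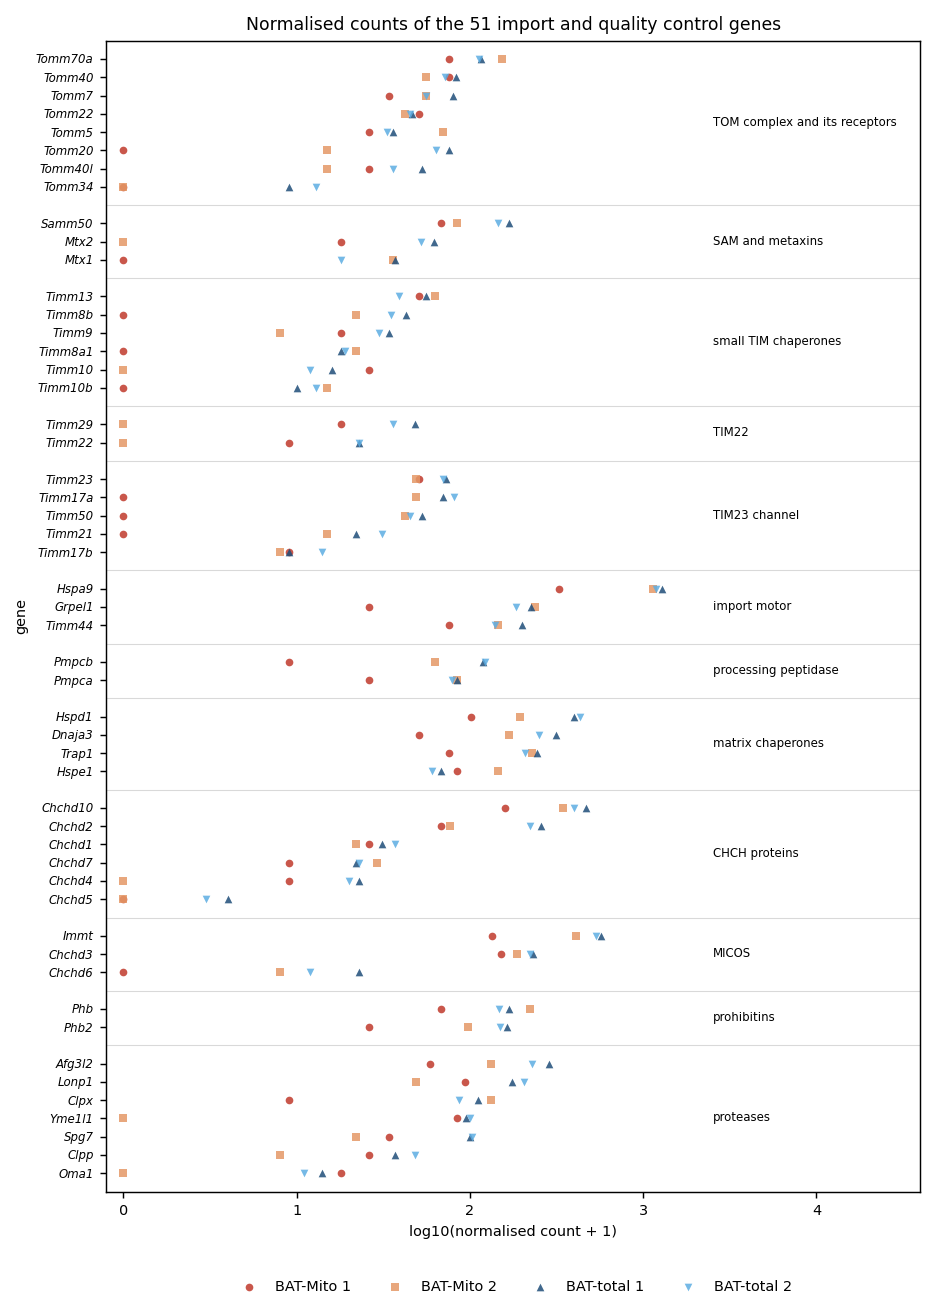
Normalised counts of all 51 members in the 4 libraries as log10 of the value plus 1, by role. BAT-total values lie close together, whereas BAT-Mito values spread widely and reach 0 in 11 members in BAT-Mito 1 and 9 in BAT-Mito 2.

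Of the 7 TOM genes tested, limma and edgeR called 0 lower, against 4.41% and 4.02% of all genes. At an unadjusted p under 0.05 limma gave 0 and edgeR 1 lower, against 14.9% and 25.7%. Tomm70a, a receptor that takes over chaperone-bound precursors, had 75 and 152 units in BAT-Mito and 115 and 112 in BAT-total, a log2 fold change of -0.09 ± 0.56 (SE, limma adjusted p = 0.921). Its mitochondrial values lay on both sides of the BAT-total pair, and the means were both 113.5. The fold change was 0.42 without BAT-Mito 1 and -0.59 without BAT-Mito 2. Tomm22, the central receptor, read 50 and 41 units against 45 and 44, and Tomm40, the channel itself, read 75 and 55 against 82 and 71. The small subunit Tomm5 had 25 and 69 against 35 and 32 units, and Tomm7 had 33 and 55 against 79 and 55. In these genes the groups overlapped. Tomm20, the presequence receptor, lay apart, with 0 and 14 units in BAT-Mito and 75 and 63 in BAT-total. That is 0 and 2 reads, and a ratio of means of 0.101 with an exact Poisson interval from 0.0123 to 0.366 on the reads. On the log2 scale the difference was -4.17 ± 1.56 (SE), with an adjusted p of 0.293 by limma and 0.0538 by edgeR, and it was -2.22 and a limma call without BAT-Mito 1. Without BAT-Mito 2, the mitochondrial library left held 0 reads, and against its floor of 3 reads Tomm20 was at least 2.76-fold lower, also a limma call. Tomm20 was singled out after its values were seen, and 7 pseudogenes match parts of its transcripts. The paralog Tomm40l had 25 and 14 against 52 and 35 units. Tomm34, a cytosolic cochaperone, had 0 reads in both BAT-Mito libraries and 8 and 12 units in BAT-total, below what 3 reads would allow to be seen. The median log2 fold change of the 7 tested TOM genes was -0.24, above that of all genes by 0.98, and it turned positive (0.36 to 0.48) under the scalings by TMM, median ratios and nuclear protein-coding totals while staying above the median of all genes. With BAT-Mito 1 or BAT-Mito 2 left out it was -0.26 or -0.59, above that of all genes by 0.66 or 0.46. The excess over all genes was 0.52 with a pseudocount of 10 and 0.55 with edgeR. As a share of nuclear protein-coding values the group took 0.0888% ± 0.0207 in BAT-Mito and 0.0717% ± 0.00653 in BAT-total (SD, n = 2 each, exact permutation p = 0.667).

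Of the outer membrane insertion machinery, Samm50, the barrel-forming subunit of the SAM complex, had 67 and 83 units in BAT-Mito against 166 and 145 in BAT-total. Both mitochondrial values were the lower, with a log2 fold change of -1.05 ± 0.43 (SE, limma adjusted p = 0.308). Without BAT-Mito 2 it was -1.20 and a limma call. Its partners, the metaxins, rested on few reads. Mtx2 had 17 and 0 units (2 reads in all) against 61 and 51, a ratio of 0.152 with a counting interval from 0.0184 to 0.548, and Mtx1 had 0 and 35 units against 36 and 17.

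Small TIM chaperones, which travel in hexamers between the membranes, rested on few mitochondrial reads. Timm13 had 50 and 62 units in BAT-Mito and 55 and 38 in BAT-total. Its partner Timm8b, high per length in BAT-total at 73.4 per kb, had 0 and 21 units against 42 and 34, and Timm8a1 had 0 and 21 against 17 and 18. In the other hexamer, Timm9 had 17 and 7 units against 33 and 29, and Timm10 had 25 and 0 against 15 and 11. None of these mitochondrial values exceeded 3 reads except those of Timm13, so an order among them was not detectable at this depth. Timm10b stood at 0 and 14 against 9 and 12 units.

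The inner membrane translocases read as follows. Timm23, the channel subunit for matrix proteins, had 50 and 48 units in BAT-Mito against 72 and 69 in BAT-total. Timm17a, which pairs with it, had 0 and 48 against 69 and 80, and its paralog Timm17b had 8 and 7 against 8 and 13. Timm50, the receptor of this complex, had 0 and 41 against 52 and 44 units. Apart from Timm17b the mitochondrial values were the lower, the order of 52.1% of all genes tested, but BAT-Mito 1 held 0 reads in Timm17a, Timm50 and Timm21 (0 and 14 against 21 and 30 units). With that library left out, the median log2 fold change of the 4 tested genes went from -2.83 to -0.58. For carrier insertion, Timm22 had 8 and 0 units against 22 and 22, and Timm29, which docks that complex to TOM, had 17 and 0 against 47 and 35 units.

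The import motor held the most abundant member. Hspa9 had 325 and 1139 units in BAT-Mito (39 and 165 reads) and 1277 and 1177 in BAT-total. BAT-Mito 2 was just under the BAT-total pair and BAT-Mito 1 well under it, a log2 fold change of -1.01 ± 0.81 (SE, limma adjusted p = 0.486). It was -0.11 without BAT-Mito 1, and -1.91 and a limma call without BAT-Mito 2. It made up 14.3% (95% Wilson interval 10.7 to 19.0%) and 23.1% (20.2 to 26.4%) of the members' sum in BAT-Mito and 18.5% and 18.8% in BAT-total. Without Hspa9 the median of the other tested members was -1.51. Grpel1, its nucleotide exchange factor, had 25 and 235 units against 225 and 184. These are 3 and 34 reads. As a ratio of values (9.40) this was the widest gap between the mitochondrial libraries among the members of this group. The log2 fold change was -1.38 ± 1.29 (limma adjusted p = 0.536). It turned to 0.21 without BAT-Mito 1, and was -2.98 and a limma call without BAT-Mito 2. Timm44, which tethers Hspa9 to the channel, had 75 and 145 against 198 and 139 units (-0.66 ± 0.58, limma adjusted p = 0.514), which became -0.19 and -1.14 with BAT-Mito 1 or 2 left out. As a group the motor took 0.252% ± 0.199 of nuclear protein-coding values in BAT-Mito and 0.251% ± 0.0190 in BAT-total.

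In the matrix, the subunits of the processing peptidase had 25 and 83 units (Pmpca) and 8 and 62 units (Pmpcb) in BAT-Mito, against 83 and 78 and against 118 and 121 in BAT-total. Pmpcb, the catalytic subunit, was lower in both mitochondrial libraries, and Pmpca overlapped. Per kilobase the ratio of Pmpca to Pmpcb was 3.75 and 1.61 in BAT-Mito and 0.844 and 0.774 in BAT-total, though it rests on 1 read of Pmpcb in BAT-Mito 1.

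Neither gene of the chaperonin pair was called. Hspd1 had 100 and 193 units in BAT-Mito (12 and 28 reads) and 396 and 433 in BAT-total, both mitochondrial values lying below both others. Its log2 fold change was -1.57 ± 0.55 (SE) with an adjusted p of 0.282 by limma and 0.0736 by edgeR, and it was a limma call without BAT-Mito 1 (-1.10) and without BAT-Mito 2 (-2.04). Hspe1, the Hsp10 lid that closes the Hsp60 barrel, had 83 and 145 units (10 and 21 reads) against 67 and 59. It was the only member with both mitochondrial values above both BAT-total values, at 0.79 ± 0.51 (limma adjusted p = 0.422, edgeR adjusted p = 0.191), and was singled out after its values were seen. Its log2 fold change was 1.19 and a limma call without BAT-Mito 1, and 0.40 without BAT-Mito 2. Hspd1 kept its direction under each scaling tried, and Hspe1 under all but equal totals over all genes (CPM), where every tested member was lower. Per kilobase, Hspd1 exceeded Hspe1 by 3.30-fold and 4.09-fold in BAT-total, while in BAT-Mito the ratio was 0.672 and 0.743. The ratio was therefore lower in both mitochondrial libraries than in both BAT-total libraries, and it does not depend on the scaling of a library. Its size depends on the lengths used, but its order between libraries does not. This pair of genes was set side by side after the values were known, and no test was made. Tested nuclear protein-coding genes with transcripts under 1000 bp had a median log2 fold change of -0.70, and longer ones -1.31. For tested members these medians were -0.97 (8 genes) and -1.52 (39 genes). The longest coding transcript has 774 bp in Hspe1 and 2423 bp in Hspd1. The part of length in the values of Hspd1 and Hspe1 was not tested. The counts of both are uncertain. Transcripts of Hspd1 match 3 pseudogenes over up to 1722 bp, and those of Hspe1 match 2 other genes over up to 515 bp. In addition, 2 Hspd1 transcripts start within Hspe1 on the other strand, and the setting for strand in counting is not given in the sources used here. By the study's methods the kit kept strand, and reads that fell on several genes or aligned to several places were left out, so such reads count for neither gene.

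The genes lie head to head on chromosome 1 of GRCm38, Hspd1 (ENSMUSG00000025980) at chr1:55077835-55088243 on the minus strand and Hspe1 (ENSMUSG00000073676) at chr1:55088132-55091307 on the plus strand. The starts of Hspd1-201 and Hspe1-201 are 108 bp apart, and the stretch between them is shown because it holds a match to the heat shock element, the motif of the factor that answers to unfolded proteins. It runs from 55088059 to 55088071, 35 bp from the Hspd1-201 start and 61 bp before the Hspe1-201 start. The 30 bases at chr1:55088051-55088080, plus strand, are from the RefSeq promoter windows of GRCm38.p6, with the match in capitals.
Hspe1: acggtccgTTCTAGAACCTTCcggaaggcc

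Among the other matrix chaperones, Dnaja3, the Hsp40 partner of Hspa9, had 50 and 166 units in BAT-Mito and 314 and 248 in BAT-total, a log2 fold change of -1.60 ± 0.78 (SE, limma adjusted p = 0.343), with -0.75 without BAT-Mito 1 and -2.46, a limma call, without BAT-Mito 2. Trap1 had 75 and 228 against 244 and 207 units, which overlapped, at -0.77 ± 0.74 (limma adjusted p = 0.541), with 0.021 without BAT-Mito 1 and -1.57, a limma call, without BAT-Mito 2. Both had 3-fold or greater gaps between the mitochondrial libraries, with 6 and 24 reads for Dnaja3 and 9 and 33 for Trap1.

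Of the CHCH proteins, which fold through disulfide bonds in the intermembrane space, Chchd10 had 158 and 345 units (19 and 50 reads) in BAT-Mito and 467 and 396 in BAT-total. Both mitochondrial values were the lower, at -0.88 ± 0.60 (SE, limma adjusted p = 0.438), with -0.32 without BAT-Mito 1 and -1.44, a limma call, without BAT-Mito 2. Its paralog Chchd2 had 67 and 76 units (8 and 11 reads) against 255 and 221. The mitochondrial values were close to each other and far from the BAT-total pair, and the log2 fold change of -1.72 ± 0.42 had the smallest adjusted p of the members, 0.203 by limma and 0.0505 by edgeR. It was a limma call without BAT-Mito 1 (-1.63) and without BAT-Mito 2 (-1.81). Because 5 pseudogenes match Chchd2 transcripts over up to 462 bp, its count is uncertain. Chchd1, a protein of the mitochondrial ribosome, had 25 and 21 against 30 and 36 units. The import receptor of the disulfide relay, Chchd4, had 8 and 0 against 22 and 19, Chchd7 had 8 and 28 against 21 and 22, and Chchd5 had 0 and 0 against 3 and 2 units.

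The MICOS genes shape cristae junctions. Immt, the core subunit mitofilin, had 133 and 407 units in BAT-Mito (16 and 59 reads) against 573 and 533 in BAT-total, at -1.24 ± 0.74 (SE, limma adjusted p = 0.398), with -0.44 without BAT-Mito 1 and -2.05, a limma call, without BAT-Mito 2. Chchd3 had 150 and 186 units (18 and 27 reads) against 230 and 222, a smaller difference of -0.43 ± 0.42 (limma adjusted p = 0.547), or -0.28 without BAT-Mito 1. Chchd6 had 0 and 7 units (0 and 1 read) against 22 and 11. In these 3 genes both mitochondrial values lay below both BAT-total values, an order that 52.1% of all genes tested showed, but the fold change of Chchd3 was positive, at 0.18 to 0.29, under the scalings by TMM, median ratios and nuclear protein-coding totals.

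The prohibitins form a ring scaffold in the inner membrane from equal parts of 2 proteins. Phb had 67 and 221 units (8 and 32 reads) in BAT-Mito against 168 and 147 in BAT-total, and Phb2 had 25 and 97 units (3 and 14 reads) against 163 and 149. Phb overlapped between the groups (-0.36 ± 0.77 SE, limma adjusted p = 0.770), with 0.49 without BAT-Mito 1 and -1.22, a limma call, without BAT-Mito 2, whereas both values of Phb2 were below both BAT-total values. Per kilobase of merged exons (2805 bp for Phb and 3718 bp for Phb2), the ratio of Phb to Phb2 was 3.55 and 3.02 in BAT-Mito and 1.37 and 1.31 in BAT-total. No test was made, since the pair was set side by side after the values were known. The longest coding transcripts are 1799 and 1318 bp, so the size of this ratio depends on the length used. Its order between libraries does not. Of 17 pairs looked at in this way, 12 had a ratio in all 4 libraries. The mitochondrial ratios lay below both others in 3, above both in 3 and among them in 6. Of those below, Timm8b over Timm13 and Tomm20 over Tomm22 rest on 0 reads of the first gene in BAT-Mito 1. Pairs whose second gene had 0 reads in a mitochondrial library were left out. With 2 libraries against 2, an exact permutation p cannot go below 0.333. Phb transcripts match 4 pseudogenes over up to 819 bp.

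**Figure D5:**
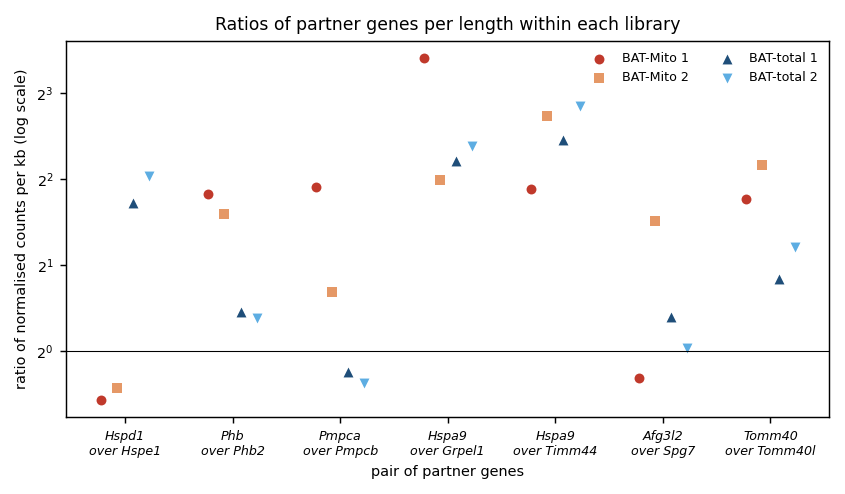
Ratio of 2 partner genes, in normalised counts per kilobase of exons, in each library on a log axis. For Hspd1 over Hspe1 both BAT-Mito ratios lie below both BAT-total ratios; for Phb over Phb2, Pmpca over Pmpcb and Tomm40 over Tomm40l they lie above; the other 3 pairs overlap.

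The 7 proteases had negative log2 fold changes between -3.41 and -1.50, as 81.2% of all genes tested had a negative one. The lowest, of Yme1l1, rests on a library with 0 reads (edgeR -1.33), and edgeR gave -0.41 for Clpx and -0.56 for Oma1. Afg3l2, the main matrix-facing AAA protease, had 58 and 131 units (7 and 19 reads) in BAT-Mito against 285 and 228 in BAT-total, at -1.54 ± 0.62 (SE, limma adjusted p = 0.303), with -0.96 without BAT-Mito 1 and -2.12, a limma call, without BAT-Mito 2. Its paraplegin partner Spg7 had 33 and 21 units (4 and 3 reads) against 99 and 102, at -1.89 ± 0.47 (limma adjusted p = 0.210, edgeR adjusted p = 0.0617), named here for its unadjusted p. It was a limma call without BAT-Mito 1 (-2.21) and without BAT-Mito 2 (-1.58). Lonp1, the soluble matrix protease, had 92 and 48 units (11 and 7 reads) against 175 and 205, at -1.50 ± 0.55 (limma adjusted p = 0.290), with -1.96, a limma call, without BAT-Mito 1 and -1.03 without BAT-Mito 2. In these 3 genes both mitochondrial values were the lower, as in 52.1% of all genes tested. The ClpXP protease read unevenly, with Clpx at 8 and 131 units against 111 and 86 and Clpp at 25 and 7 against 36 and 47. Of the inner membrane stress proteases, Yme1l1 had 83 and 0 units against 94 and 99, and Oma1 had 17 and 0 against 13 and 10. As a group the proteases took 0.0851% ± 0.00323 of nuclear protein-coding values in BAT-Mito and 0.125% ± 0.00243 in BAT-total (SD, n = 2 each). Both mitochondrial shares lay below both others, as did those of the SAM and metaxin genes and of TIM22. The other role groups overlapped. The SAM and metaxin shares rest on 10 and 17 mitochondrial reads, and those of TIM22 on 3 and 0. For the proteases the exact permutation p was 0.333, the smallest this design allows. The 2 mitochondrial shares were close, but their genes were not: BAT-Mito 1 and 2 held 10 and 0 reads of Yme1l1, 1 and 19 of Clpx, 7 and 19 of Afg3l2 and 11 and 7 of Lonp1.

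The mitochondrial libraries agreed poorly gene by gene. Over the 51 members, Spearman's rho between them was 0.649 and Pearson's r on the log2 scale 0.473, as a description. Reads were found in both libraries for 33 members, in 1 of them for 16 and in neither for 2, and 20 members had more than 3 reads in both. Against the BAT-total pair, BAT-Mito 1 lay below both values in 44 members and above both in 4 (Tomm22, Hspe1, Oma1 and Timm10). BAT-Mito 2 lay below both in 36 and above both in 10 (Chchd7, Tomm70a, Tomm5, Grpel1, Hspe1, Phb, Clpx, Timm13, Timm8a1 and Timm10b). Hspe1 was the only gene on both of these lists. Among tested nuclear protein-coding genes, 71.9% and 69.5% were below and 21.2% and 21.6% above. Averaged over each group, the members kept much of their order between the fractions, with Spearman's rho 0.891 over the 51 genes.

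Start sites and the sequence around them were also counted. A facing start of another protein-coding gene within 1000 bp was annotated (GENCODE M21) for 14 of 51 (27.5%, Hspd1 and Hspe1 being each other's partner), against 15.5% of 12951 listed protein-coding genes. RefSeq windows from 250 bases before to 50 after the start (GRCm38.p6) were found for 44 members, and motifs were searched on both strands. The windows of Hspd1 and Hspe1 overlap, so that a match in their shared stretch counts for both. The letters CCGGAAG, bound by ETS factors such as GABP, a regulator of nuclear genes for mitochondria, were in the windows of 22 of the 44 members and of 19.3% of 10264 listed genes. The core of the NRF-1 site, searched as GCGC, any 2 bases and GCGC again, was in 10 (22.7%) against 14.7%. AAGGTCA, the half-site of estrogen-related receptors, was in 7 (15.9%) against 3.98%. The heat shock element shown above, searched as TTC, any 2 bases, GAA, any 2 bases and TTC, was in 3 (6.82%), namely Hspd1 and Hspe1, which share the stretch, and Timm9, against 0.575%. TGACGTNA, a CRE/ATF site, was in Lonp1 and Trap1 (4.55%) against 5.44%. A match describes the letters and shows no binding.

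Sequences upstream of 3 members are given, with matches in capitals, because they stand for these motifs in genes described above. Tomm70a (chr16:57121464-57121702, plus strand), whose group means were equal, holds the ETS letters. Grpel1 (chr5:36464935-36464997, plus strand), whose mitochondrial libraries differed most by fold in the motor, holds them on the opposite strand. Trap1 (chr16:4077828-4078060, minus strand) holds the receptor half-site and the CRE/ATF site. All end at the base before the gene's first annotated exon and are from the RefSeq windows of GRCm38.p6, 5′ to 3′.
Tomm70a: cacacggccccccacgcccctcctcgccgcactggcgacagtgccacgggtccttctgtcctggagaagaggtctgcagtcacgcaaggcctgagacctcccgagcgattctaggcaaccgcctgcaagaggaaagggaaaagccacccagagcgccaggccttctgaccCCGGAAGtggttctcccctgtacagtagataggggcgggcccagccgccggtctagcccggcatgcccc
Grpel1: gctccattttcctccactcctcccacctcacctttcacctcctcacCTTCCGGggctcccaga
Trap1: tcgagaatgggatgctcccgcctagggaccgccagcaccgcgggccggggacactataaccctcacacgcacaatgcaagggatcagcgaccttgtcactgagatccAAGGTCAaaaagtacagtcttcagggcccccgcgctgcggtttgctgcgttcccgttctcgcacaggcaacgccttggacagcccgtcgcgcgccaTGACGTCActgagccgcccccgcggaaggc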

How the data were processed

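RNA of isolated mitochondria and of BAT-total from brown adipose tissue was sequenced, 2 libraries each. Per the labels and the study's methods, reads were trimmed with Trimmomatic 0.39, aligned to mm10 with STAR 2.7.10a, counted with featureCounts 2.0.2 and scaled with DESeq2 1.30.1 (versions from the submitters' processing notes; the study's methods name other versions of STAR, the counter and DESeq2). The deposited values are a signal, gene counts divided by a size factor per library and rounded. In BAT-Mito they rise in steps, from which whole reads were recovered for 100.0% of values (within 0.5 units). BAT-total reads were not recovered. Genes with a mean of at least 10 were compared as log2(value + 1), a scale that shrinks differences of genes low in every library and enlarges them where 1 mitochondrial library holds 0 reads and the other does not, with limma 3.58.1 (R 4.3.3, no trend, Benjamini-Hochberg over all genes) or, as an alternative, edgeR 4.0.16 quasi-likelihood on reads, with BAT-total values standing in for reads. Scripts were tested on simulated data. Alternatives covered the pseudocount, filter, scaling, trend, replicate block and each library left out. A scaling without predicted Gm genes was added after seeing the data.

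Members, role groups and lists were chosen with earlier results of these data known. Every member may be named with its values. Fold changes with SE are given for the 15 tested members of highest mean, plus Hspe1, Tomm20 and Spg7, chosen after their values were seen. Lists are described by counts, medians and summed shares, the last compared by exact permutation over libraries. Lengths are merged exons in GENCODE M21, where all 51 members have the same coordinates. A ratio per kilobase between 2 genes depends in size on this choice, whereas its order between libraries does not. Transcripts were compared with BLAST 2.17.0 (at least 95% identity over 75 bp), which matched 33 members to another gene and 18 to a pseudogene. Long matches include those of Tomm40l (2119 bp), Timm23 (1121 bp) and Pmpca (874 bp), whose counts are uncertain too. Wilson and Poisson intervals (95%) and the floor of 3 reads cover counting error only.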

Additional observations from a re-analysis of the deposited data

How the results depend on the processing

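Few reads of nuclear genes in BAT-Mito limit the comparisons between fractions. The count of higher members was 0 and that of lower members 0 with all 4 libraries under a pseudocount of 10, a mean of at least 50, the scalings by TMM, median ratios and nuclear protein-coding totals, the replicate block and edgeR. Without a filter 3 were lower (Tomm34, Chchd5 and Chchd2, against 20.8% of all genes), with the trend option 1 (Chchd2, 5.50%), and with CPM over all genes, where the mitochondrial genome takes most of each BAT-Mito library, 47 (96.9%). Leaving out each library gave 0 to 2 higher and 0 to 28 lower members. The median log2 fold change of tested members moved from -1.50 to -0.99 with a pseudocount of 10 (all genes -0.73), -1.03 with a mean of at least 50 (-0.96), -0.93 with TMM (-0.66), -0.81 with median ratios of nuclear genes (-0.55), -0.89 with equal nuclear protein-coding totals (-0.63), -0.81 with those totals without predicted Gm genes (-0.55), -7.45 with CPM (-7.15) and -1.01 with edgeR (-0.80). With a library left out it ran from -1.50 to -0.62. The cause of these shifts was not tested.

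Some genes changed sign. In the order TMM, median ratios, nuclear protein-coding totals and those totals without Gm genes, log2 fold changes were 0.18, 0.29, 0.21 and 0.29 for Chchd3, 0.24, 0.36, 0.28 and 0.36 for Phb, and 0.52, 0.64, 0.56 and 0.64 for Tomm70a. Timm44 was at 0.059 with median ratios and 0.061 without Gm genes, and Tomm70a at 0.027 with edgeR. Hspe1 was at -5.86 with CPM. Without BAT-Mito 1, Phb was at 0.49, Tomm70a at 0.42, Trap1 at 0.021 and Grpel1 at 0.21, and without BAT-Mito 2 these were at -1.22, -0.59, -1.57 and -2.98. The titles number the replicates 1 and 2 in both groups with no pairing stated. The differences between replicates correlated at 0.112 over 8215 genes. With the replicate number as a block, 0 members were higher and 0 lower, and the median was -1.50.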
